A study of Mus musculus with 6 samples.

Results

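The genes described here are 10 genes of upper-layer neurons, the excitatory neurons of layers 2 to 4 that lie nearest the surface of the cerebral cortex. They are the Cut-type homeodomain factors Cux1 and Cux2, the POU-domain factors Pou3f1, Pou3f2 and Pou3f3, and the layer 2/3 genes Kitl, Mdga1, Rasgrf2, Otof and Wfs1. Members were found by matching the gene name that the array files give to each probe. This gave 16 probes out of 55681 on the array, with 3 probes each for Cux1 and Pou3f2, 2 each for Mdga1 and Rasgrf2, and 1 for each of the other genes. All 16 were well above background on all 6 arrays, were spotted once per array, and were among the 50030 probes tested.

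RNA came from the primary somatosensory cortex (S1) of C57BL/6 mice at postnatal day 7 and was hybridised to single-colour Agilent arrays, 1 per sample. Controls were 3 samples carrying floxed Lhx2 alleles without Cre (Lhx2 f/f), which the sample titles call WT. The other group held 3 samples with the same floxed alleles and Nex-Cre (Lhx2 f/f;Nex-Cre), labelled Lhx2 cKO. Nex-Cre, a Cre knocked into the Neurod6 gene, recombines in newly formed cortical excitatory neurons, so other cell types keep their floxed alleles. Nothing in the labels states that each sample was a separate animal, and p-values then reflect only how far these samples spread, which may be technical.

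Upper-layer neurons are born late in corticogenesis, migrate past the deep layers, and connect cortical areas and the 2 hemispheres. Cux1 and Cux2 mark layers 2 to 4 and act in dendrite growth and synapse formation. Pou3f2 and Pou3f3, also called Brn2 and Brn1, act in the production and migration of these neurons, and Pou3f1 is found in layer 5 as well as in the upper layers. Lhx2, the targeted gene, is a LIM-homeodomain factor that is itself found in upper-layer neurons.

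The probes on which the results turn are shown by their opening 30 bases, out of 60, so that a reader can see which stretch of RNA each reports. A probe is named by the transcript position at which the files place it. None of these stretches has a marked base.
Cux1 probe at 2821: tccatgatttgagttctgcttgcttcttta
Cux1 probe at 3753: atatcagcagaagccatacccatcaccaaa
Cux1 probe at 5591: tgccatctaatggcttcagagcgataatac
Pou3f2 probe at 1423: aaggaggtggtgagagtttggttttgtaac
Pou3f2 probe at 1785: ataatggttttttgacctttgcaggcgaga
Pou3f2 probe at 3934: gcctcaatgtatatttatttctttggagca
Kitl: tcttcagtcacaacctgcagcctgtcgtta
No 2 of the 16 probes shared a run of more than 9 bases on either strand, over 120 pairs, so the probes of a gene are separate sequences. On mm9 the Cux1 probes lie on the minus strand at chr5:136724181-136724240 (position 2821), chr5:136755342-136755401 (3753) and chr5:136750136-136750195 (5591). The Pou3f2 probes lie on the minus strand at chr4:22414031-22414090 (1423), chr4:22413669-22413728 (1785) and chr4:22411520-22411579 (3934), and the Kitl probe on the plus strand at chr10:99558962-99559021. No exon or untranslated-region annotation of that build was used.

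The 75th percentile of the processed signal lay between 892 and 1067 intensity units, and 86.7% to 91.1% of spots were well above background. The Lhx2 probe gave more signal in the arrays labelled cKO than in the control arrays, with a level of 4.58 ± 0.17 against 3.48 ± 0.04 (SD, n = 3 each). Levels here and throughout are log2 processed signals from which the 75th percentile of that array was subtracted. This is opposite to a loss of transcript. Neurod6, the gene that carries the Cre, also read higher in the arrays labelled cKO, with groups apart (log2 difference 0.38, limma adjusted p = 0.62). The sources used here do not say which exons are floxed, so the name used here is the arrays labelled cKO, and every direction rests on the labels. All arrays lay on 1 slide, with cKO replicates 1, 2 and 3 in rows 4, 1 and 2 and control replicates 1, 2 and 3 in rows 1, 2 and 3. Y-linked signal was present in control replicates 1 and 3 alone.

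The array of cKO replicate 1, the only array in row 4, stood apart from the others at many of the 16 probes. It was the lowest of the 6 arrays for 10 of the 16 probes, against 14.9% of all tested probes, and the highest for 2 of 16, against 27.6%. The 10 were of Cux1, Cux2, Pou3f1, Pou3f2, Pou3f3 and Mdga1, with all 3 Pou3f2 probes among them. Relative to the control mean, the median of the 16 probes was -0.49 in cKO replicate 1, 0.13 in cKO replicate 2 and 0.08 in cKO replicate 3, and -0.05 to 0.05 in the control arrays. Member values are therefore also given without that array. It was picked from these same values, so the p-values, intervals and counts without it are descriptions and not tests. The median log2 difference of the 16 probes was 0.05 with that array and 0.10 without it. Its row and its group cannot be told apart, because no control array lay in row 4.

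**Figure D1:**
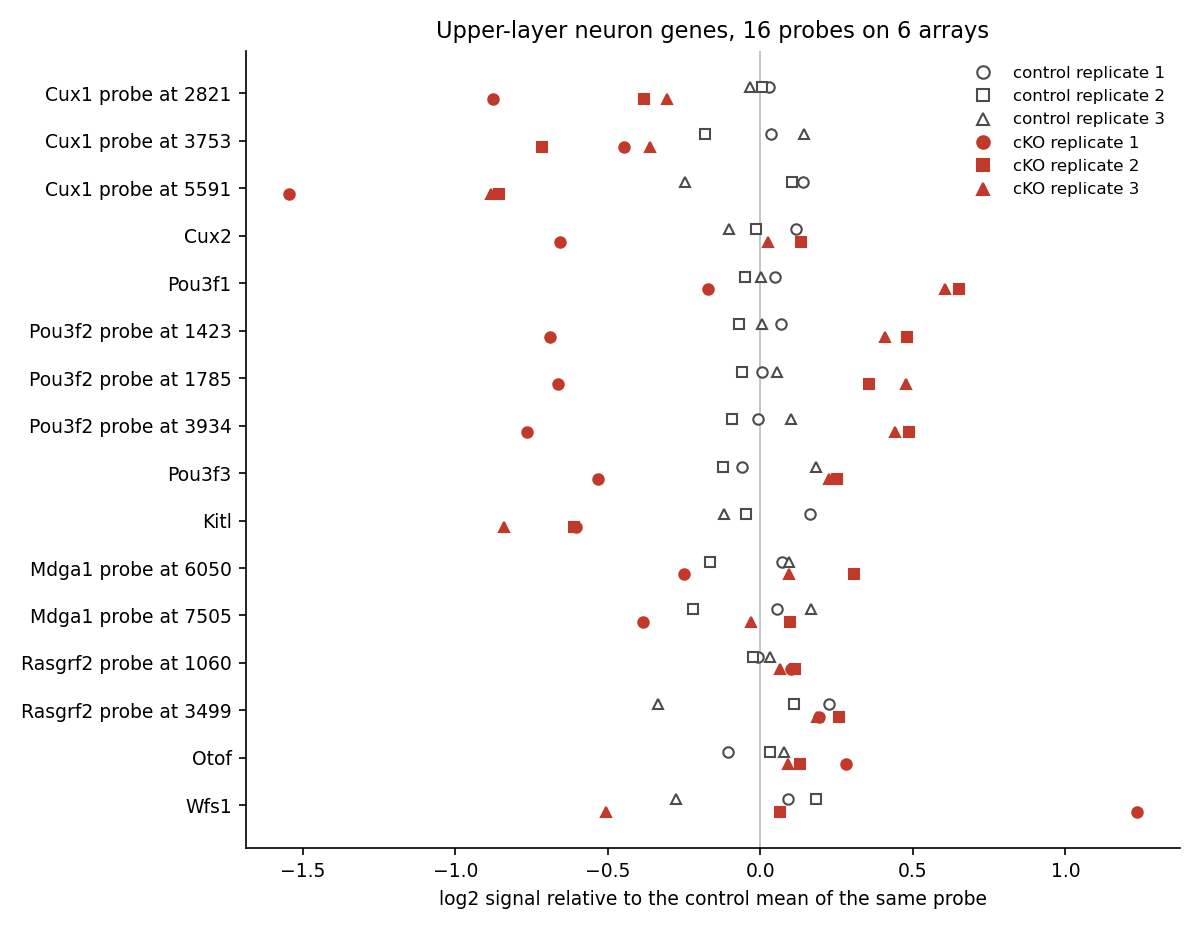
Each point is 1 array; the horizontal axis gives the log2 signal of each of the 16 probes minus that probe's control mean, with control arrays as open grey symbols and the arrays labelled cKO as filled red symbols. The Cux1 and Kitl points of all arrays labelled cKO lie left of every control point, while for Pou3f1 and Pou3f2 cKO replicate 1 lies left and cKO replicates 2 and 3 lie right of every control point.

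The first comparison was of the arrays labelled cKO with control for every probe. None of the 16 probes passed an adjusted p of 0.05 in limma's moderated test with Benjamini-Hochberg adjustment over 50030 probes, and neither did any other probe (0%). The smallest adjusted p among the members was 0.23, for Kitl. At an unadjusted p under 0.05, 4 of the 16 probes were lower in the arrays labelled cKO, against 3.9% of all tested probes, and 0 were higher, against 2.9%. Those 4 were the Kitl probe and all 3 Cux1 probes. Control and labelled cKO values were fully apart for the same 4 probes, lower in the arrays labelled cKO (5.89% of all probes), and for 2 probes that were higher, of Otof and Rasgrf2 (6.82% of all probes). The median log2 difference over the 16 probes, 0.05, stood beside 0.02 over all tested probes. Of the 16 differences, 7 were below 0 and 9 above.

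Cux1 gave less signal at all 3 probes. The Cux1 gene also encodes, through alternative splicing, a Golgi membrane protein named CASP that lacks the DNA-binding domains, so probes in different parts of the gene can report different transcripts. The files list 4 RefSeq transcripts for the probe at position 2821, and none of these is among the 3 listed for both other probes, though such lists may be incomplete. At the probe at 5591, control replicates 1, 2 and 3 read 0.96, 0.92 and 0.57, and cKO replicates 1, 2 and 3 read -0.73, -0.04 and -0.06. Every array labelled cKO was below every control array, and cKO replicate 1 was the lowest. The mean signal was 2.14-fold lower (log2 difference -1.09, SE 0.22, 95% interval -1.61 to -0.58, limma adjusted p = 0.31). Leaving out cKO replicate 1 gave a log2 difference of -0.87 (SE 0.15, limma adjusted p = 0.31), which is 1.83-fold.

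The other two Cux1 probes showed smaller differences in the same direction. The probe at 2821 read 3.70, 3.68 and 3.64 in control replicates 1, 2 and 3 and 2.80, 3.29 and 3.37 in cKO replicates 1, 2 and 3. The control arrays lay close together there, and the arrays labelled cKO lay below them and further apart. The log2 difference was -0.52 (SE 0.16, 95% interval -0.91 to -0.13), which is 1.44-fold lower, and -0.34 without cKO replicate 1, a value moved by more than 1.5 times. The probe at 3753 was the dimmest of the Cux1 probes, with processed intensities of 96.5 to 188 units. It read -2.49, -2.71 and -2.39 in control replicates 1, 2 and 3 and -2.98, -3.25 and -2.89 in cKO replicates 1, 2 and 3. The groups did not overlap, and here cKO replicate 2, not 1, was the lowest. The log2 difference was -0.51 (SE 0.14, 95% interval -0.84 to -0.18), which is 1.42-fold lower, and -0.54 without cKO replicate 1.

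Of 2371 gene names with exactly 3 tested probes, 22 (0.928%) had all 3 probes lower in the arrays labelled cKO with groups that did not overlap, and Cux1 was 1 of them; 29 had all 3 probes higher and apart. Within slide row 1, where cKO replicate 2 lay beside control replicate 1, the log2 differences were -0.41 at position 2821, -0.75 at 3753 and -0.997 at 5591. Within row 2, of cKO replicate 3 and control replicate 2, they were -0.31, -0.18 and -0.986. Because the groups did not overlap at these probes, the direction within each row was fixed in advance and adds no support. Only the sizes are new here, with 1 array against 1 and no test. With a term for Y-linked signal the differences were -0.53, -0.33 and -1.20. Both arrays with that signal were controls, so these values set the arrays labelled cKO against control replicate 2 alone. Their sign too was fixed by the lack of overlap.

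Cux2, the close relative of Cux1, differed little between the groups. Its probe (chr5:122310226-122310285, minus strand) read -0.16, -0.29 and -0.38 in control replicates 1, 2 and 3. It read -0.94, -0.15 and -0.25 in cKO replicates 1, 2 and 3, so that only cKO replicate 1 lay outside the control range by a wide margin. The log2 difference was -0.17 (SE 0.21, 95% interval -0.68 to 0.35, limma adjusted p = 0.999). Without cKO replicate 1 it was 0.08 (95% interval -0.20 to 0.36), so the direction of the Cux2 value turned on that array. A further probe, which the files name by an Ensembl transcript and describe as a predicted Cux2 transcript, is not a member by name. It read 3.02, 3.09 and 2.81 in control and 2.42, 3.18 and 3.19 in cKO replicates 1, 2 and 3, with a log2 difference of -0.04 (95% interval -0.57 to 0.50), again a low value in cKO replicate 1, and 0.22 without it. Over all 6 arrays the interval of Cux2 includes differences as low as those of the Cux1 probes at 2821 and 3753. The interval without cKO replicate 1 cannot set Cux2 apart from Cux1. The array left out was the lowest at Cux2 and was picked from the member values.

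The Cux1 and Kitl signals and the receptor gene Kit, described further below, are plotted together by array.

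**Figure D2:**
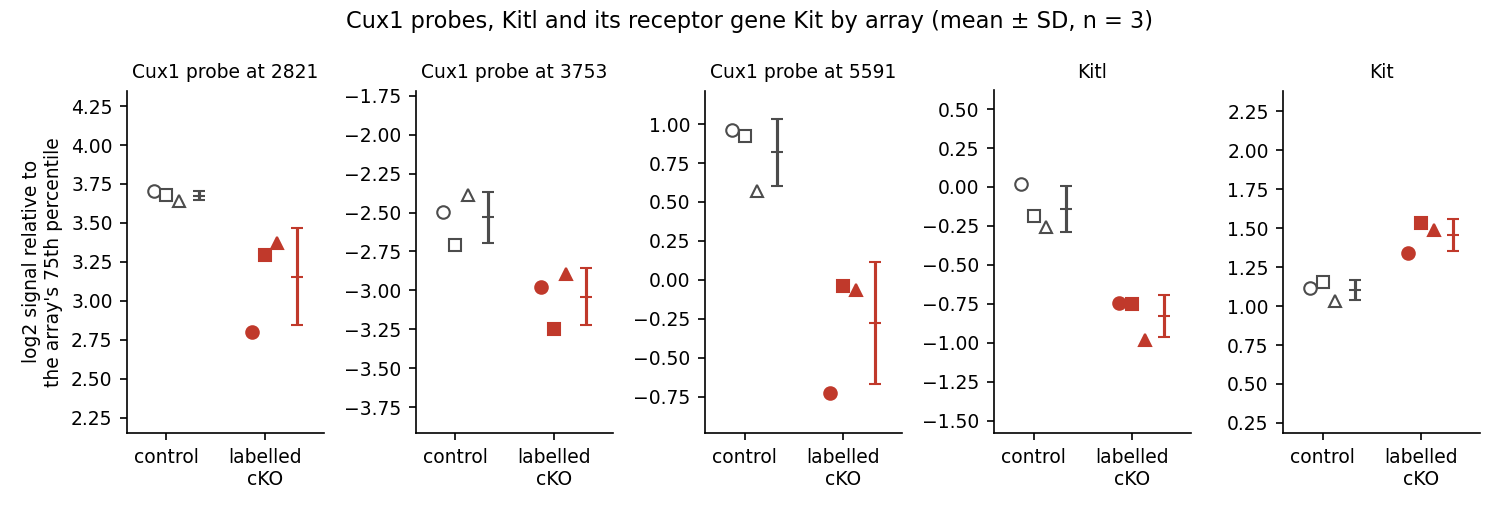
Log2 signal minus the 75th percentile of its array for the 3 Cux1 probes, Kitl and Kit; each symbol is 1 array (open grey for control, filled red for labelled cKO, with circle, square and triangle for replicates 1, 2 and 3), and bars give the mean ± SD of 3 arrays. Each panel has its own vertical axis of equal length, and the groups are apart in all panels, with labelled cKO lower for Cux1 and Kitl and higher for Kit.

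The POU factors separated the arrays labelled cKO from one another more than they separated the groups. Pou3f1 (chr4:124337692-124337751, plus strand) read 3.71, 3.61 and 3.66 in control replicates 1, 2 and 3. In cKO replicates 1, 2 and 3 it read 3.49, 4.31 and 4.26. Thus cKO replicates 2 and 3 were above every control array and cKO replicate 1 was below every control array. Over all 6 arrays the log2 difference was 0.36 (SE 0.22, 95% interval -0.17 to 0.89, limma adjusted p = 0.91). Without cKO replicate 1 it was 0.63, or 1.55-fold higher (SE 0.09, 95% interval 0.39 to 0.86, unadjusted p = 8.21e-04 and adjusted p = 0.28 by limma). The array left out was the low one at this probe, so that interval and those p-values are no test of a rise.

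Pou3f2 showed the same arrangement at each of its 3 probes. The probe at 1423 read 0.87, 0.74 and 0.81 in control replicates 1, 2 and 3, and 0.12, 1.29 and 1.22 in cKO replicates 1, 2 and 3. The probe at 1785 read 0.88, 0.81 and 0.92 in control, and 0.21, 1.23 and 1.35 in cKO replicates 1, 2 and 3. The probe at 3934 read 0.87, 0.79 and 0.98 in control, and 0.12, 1.37 and 1.32 in cKO replicates 1, 2 and 3. At every Pou3f2 probe cKO replicate 1 was the lowest array and cKO replicates 2 and 3 were the highest. The spread among the arrays labelled cKO (SD 0.63 to 0.71) was far above that among control arrays (SD 0.06 to 0.10), so the group means hardly differed, by 0.05 to 0.07, with 95% intervals reaching from -0.73 to 0.84. Without cKO replicate 1 the differences were 0.45, 0.42 and 0.46 at positions 1423, 1785 and 3934 (SE 0.10 each), or 1.36-, 1.33- and 1.38-fold higher. None passed the adjusted threshold (limma adjusted p 0.43 to 0.45).

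Pou3f3 (chr1:42756099-42756158, plus strand) followed the other POU genes with smaller values. It read -0.13, -0.19 and 0.11 in control replicates 1, 2 and 3 and -0.60, 0.18 and 0.15 in cKO replicates 1, 2 and 3. The log2 difference was -0.02 (SE 0.23, 95% interval -0.56 to 0.52), and 0.24 without cKO replicate 1 (95% interval -0.08 to 0.55). Here too cKO replicate 1 was the lowest array and the remaining arrays labelled cKO were the highest, though only just above control replicate 3.

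Leaving out cKO replicate 1 added POU probes alone to the counts. At an unadjusted p under 0.05, 4 of the 16 probes were then higher in the arrays labelled cKO, namely those of Pou3f1 and Pou3f2, against 2.87% of all probes. With all 6 arrays the count was 0, and 3 of these 4 probes are of Pou3f2. The array left out was picked for its low values at such probes. The counts of higher probes here are therefore not comparable with the shares of all probes. The 4 lower probes were still those of Cux1 and Kitl, against 4.2%. Groups did not overlap for 7 higher probes, those of Pou3f1, Pou3f2, Pou3f3 and Otof and the Rasgrf2 probe at 1060, against 12.6% of all probes, and for 4 lower ones, against 10.9%. Within slide row 1 the differences were 0.60 for Pou3f1, 0.35 to 0.49 for Pou3f2 and 0.31 for Pou3f3, and within row 2 they were 0.66, 0.48 to 0.54 and 0.35. Both rows leave out cKO replicate 1, and without it the groups did not overlap at these probes, so these signs were fixed in advance.

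**Figure D3:**
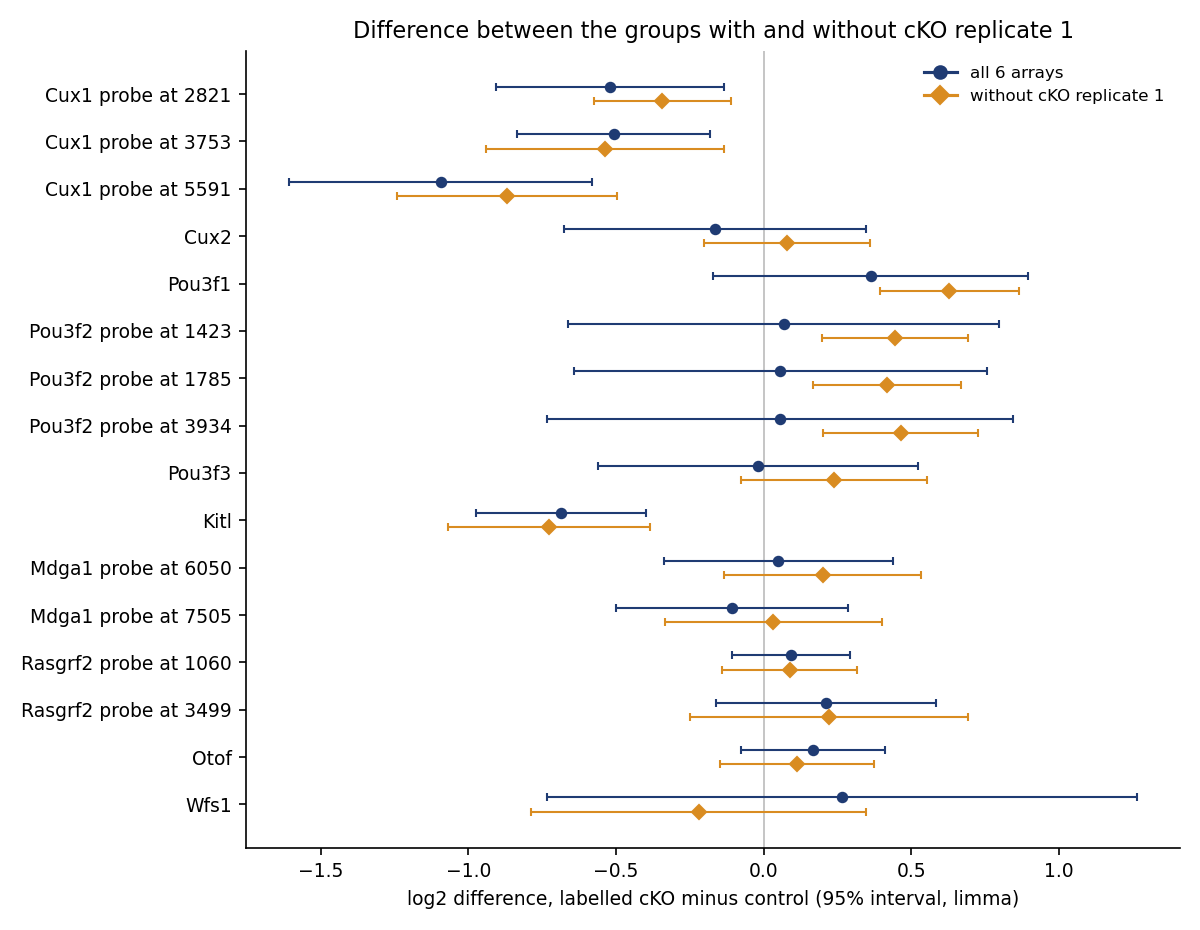
Log2 difference, labelled cKO minus control, for each of the 16 probes with its 95% interval from limma, for all 6 arrays (blue circles) and without cKO replicate 1 (orange diamonds). The intervals of Cux1 and Kitl lie below 0 both ways, and those of Pou3f1 and Pou3f2 lie above 0 only without cKO replicate 1. That array was picked from these same values, so the orange intervals are descriptions and not tests.

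Kitl, the ligand of the receptor tyrosine kinase Kit and also called stem cell factor, had the smallest p among the members. Its probe read 0.02, -0.19 and -0.26 in control replicates 1, 2 and 3, and -0.75, -0.75 and -0.98 in cKO replicates 1, 2 and 3. The groups did not overlap, and cKO replicate 1 lay beside the other arrays labelled cKO here. The mean signal was 1.61-fold lower (log2 difference -0.69, SE 0.12, 95% interval -0.97 to -0.40, unadjusted p = 8.86e-04 and adjusted p = 0.23 by limma). Without cKO replicate 1 the difference was -0.73, within row 1 -0.78 and within row 2 -0.80. With a term for Y-linked signal, which leaves control replicate 2 alone as the comparison, it was -0.64. As the groups did not overlap, none of these values could have turned sign. When arrays were weighted by their overall agreement with the fit, Kitl and the Cux1 probe at 5591 passed, with limma adjusted p of 0.0408 and 0.0448. With those weights 287 of all 50030 probes passed, against 0 as tested. Probes with a limma unadjusted p under 0.05 numbered 8355, against 3402 as tested. Over the other refits the adjusted p ran from 0.0612 for Kitl and 0.0887 for Cux1 up to 0.99997 for both. The weights ranged from 0.40 for control replicate 3 to 3.76 for control replicate 2.

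Genes of the Kit pathway were read from a list of 9 genes, all tested. None passed over all probes. At an unadjusted p under 0.05, 2 were lower and 1 was higher, against 4.17% and 2.96% of all gene names by their brightest probe. The higher one was Kit itself, the receptor, which read 1.12, 1.16 and 1.03 in control replicates 1, 2 and 3 and 1.34, 1.53 and 1.49 in cKO replicates 1, 2 and 3. The receptor was thus above the control range on every array labelled cKO while its ligand was below it (log2 difference of Kit 0.35, SE 0.10, limma adjusted p = 0.47). The lower ones were the Src-family kinase gene Lyn, with a log2 difference of -0.51, and the phosphatase gene Ptpn6, with -0.61. Lyn was dim, at -4.83 ± 0.09 in control, and with normexp background correction its difference was -0.12 or -0.16 (limma unadjusted p = 0.18 and 0.060), which ends its place in the count. With cKO replicate 1 left out, the differences were 0.41 for Kit, -0.52 for Lyn and -0.79 for Ptpn6. Sh2b3, an adaptor of Kit signalling, differed by -0.32 with overlapping groups. Lyn and Ptpn6 are also expressed by microglia, and microglial markers were lower on the same arrays, as given below. The part of microglia in the Lyn and Ptpn6 values was not tested.

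Mdga1, a membrane-anchored protein of the immunoglobulin family that marks layer 2/3 and acts in migration, did not differ beyond its spread at either probe. The probe at 7505 (chr17:29964904-29964963, minus strand) read 4.25, 3.97 and 4.36 in control replicates 1, 2 and 3 and 3.81, 4.29 and 4.17 in cKO replicates 1, 2 and 3. The probe at 6050 (chr17:29966359-29966418) read -2.37, -2.61 and -2.35 in control and -2.69, -2.14 and -2.35 in cKO replicates 1, 2 and 3. At both, cKO replicate 1 was the lowest of the 6 arrays. The log2 differences were -0.11 (95% interval -0.50 to 0.29) and 0.05 (95% interval -0.34 to 0.44). Without cKO replicate 1 they were 0.03 and 0.20, so the sign at 7505 turned on that array.

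Rasgrf2, an exchange factor that activates Ras and Rac in response to calcium, differed little. The probe at 1060 read -0.986, -1.0001 and -0.946 in control replicates 1, 2 and 3 and -0.88, -0.87 and -0.91 in cKO replicates 1, 2 and 3. The groups did not overlap, but the step was small, with a log2 difference of 0.09 (SE 0.08, 95% interval -0.11 to 0.29). The probe at 3499 read -2.05, -2.17 and -2.61 in control and -2.09, -2.02 and -2.10 in cKO replicates 1, 2 and 3, and the groups overlapped (log2 difference 0.21, 95% interval -0.16 to 0.58). The differences at 1060 and 3499 were 0.09 and 0.22 without cKO replicate 1. The files place these Rasgrf2 probes 774.5 kb apart on chromosome 13, whereas RefSeq gives the whole gene a length of 251.4 kb (assembly GRCm38.p6), so at least 1 of the positions cannot be right and neither is printed.

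Otof encodes otoferlin, a calcium sensor of vesicle release best known from inner hair cells and used as a layer 2/3 marker. Its probe (chr5:30669401-30669460, minus strand) read 1.08, 1.21 and 1.26 in control replicates 1, 2 and 3 and 1.46, 1.31 and 1.27 in cKO replicates 1, 2 and 3. All arrays labelled cKO were above all control arrays, the closest by 0.02. The log2 difference was 0.17 (SE 0.10, 95% interval -0.08 to 0.41, limma adjusted p = 0.91), and 0.11 without cKO replicate 1, which was the highest array. With quantile normalization, median centring or the authors' matrix, 1 member probe in place of 2 was higher without overlap.

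Wfs1, which encodes the endoplasmic reticulum protein wolframin, went the opposite way to the POU genes. Its probe (chr5:37357424-37357483, minus strand) read 0.95, 1.04 and 0.58 in control replicates 1, 2 and 3 and 2.09, 0.92 and 0.35 in cKO replicates 1, 2 and 3. The value of cKO replicate 1 was the highest of the 6 arrays and that of cKO replicate 3 the lowest. The log2 difference was 0.26 (SE 0.42, 95% interval -0.74 to 1.27), and -0.22 without cKO replicate 1, so its direction turned on that array. Wfs1 is also a marker of hippocampal area CA1, and the median of 7 tested hippocampal markers, relative to the control mean, was 0.36 in cKO replicate 1, -0.11 in cKO replicate 2 and -0.13 in cKO replicate 3. The part of those markers in the Wfs1 value was not tested.

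**Figure D4:**
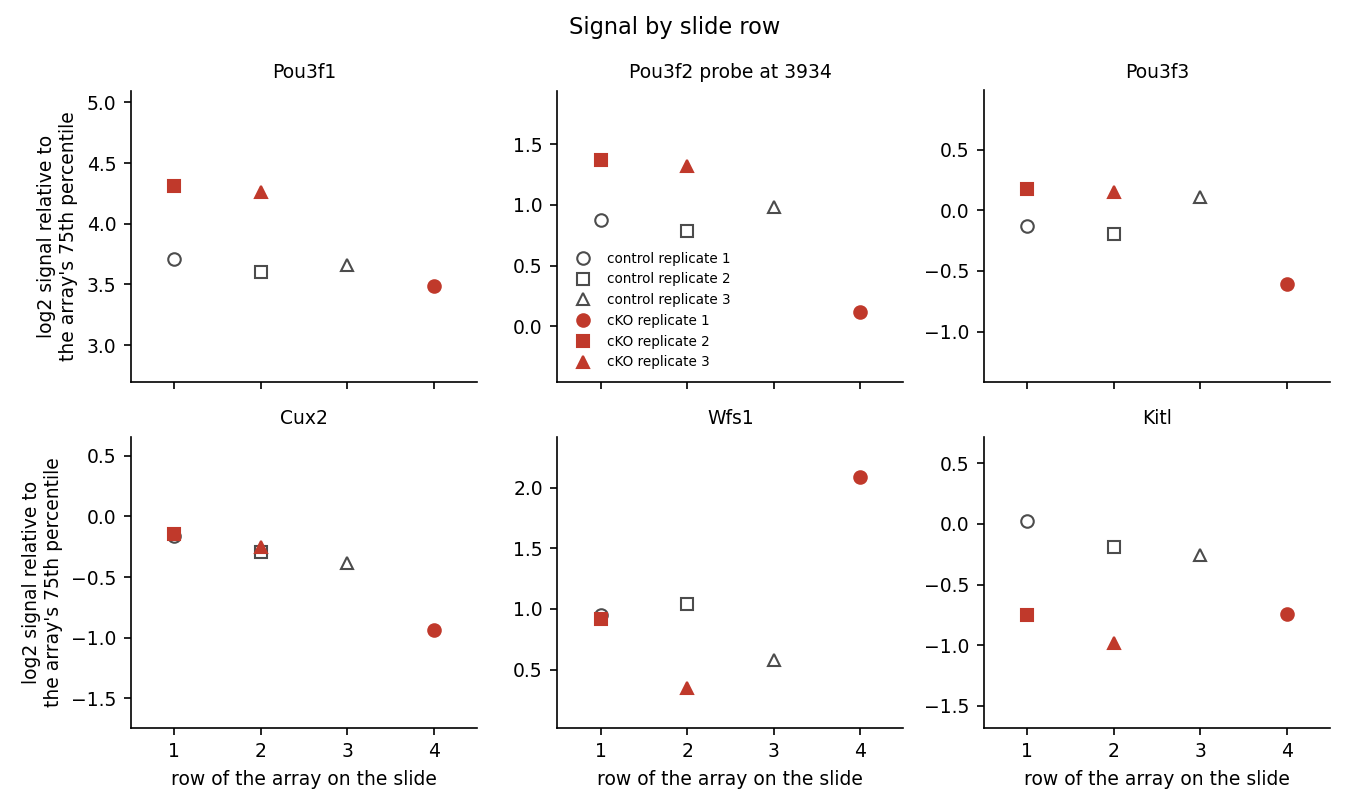
Log2 signal minus the 75th percentile of its array against the row of the array on the slide, for Pou3f1, Pou3f2 (probe at 3934), Pou3f3, Cux2, Wfs1 and Kitl, with 1 symbol per array (open grey for control, filled red for labelled cKO). In row 4 cKO replicate 1 is alone, low for the POU genes and Cux2 and high for Wfs1, while in rows 1 and 2 the Kitl value labelled cKO lies below its control neighbour.

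Other genes of upper-layer or callosal neurons were read from a list of 33 genes, all tested. At an unadjusted p under 0.05, 5 were lower and 2 were higher in the arrays labelled cKO, against 4.17% and 2.96% of all gene names, and none passed over all probes. The median log2 difference of the list was 0.04, against 0.02 for all gene names. The smallest p belonged to Nnmt, a methyltransferase gene, which read -0.22 ± 0.09 in control against 0.50 ± 0.08 for labelled cKO (SD, n = 3 each; log2 difference 0.72, limma adjusted p = 0.14). Chn2, which encodes a Rac-inactivating protein, differed by -0.70, and its other probes by -0.64 and -0.04. Ptn, a secreted growth factor gene, differed by -0.40. Groups were apart for Nnmt and Ptn and for all but the last of these Chn2 probes. Leaving out cKO replicate 1 gave 0.67 for Nnmt, -0.58 for the brightest Chn2 probe and -0.34 for Ptn. Relative to the control mean the list's median was -0.16 in cKO replicate 1, 0.06 in cKO replicate 2 and 0.10 in cKO replicate 3, beside -0.10 to 0.05 in the control arrays.

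Other POU and Cut-related factors were read from a list of 15 genes, of which 13 were tested; Onecut1 and Pou4f3 were not well above background on any array. Satb1, a chromatin organizer with Cut-like repeats, read 4.28, 4.17 and 4.05 in control replicates 1, 2 and 3 and 2.62, 3.14 and 3.02 in cKO replicates 1, 2 and 3. It was lower on every array labelled cKO (log2 difference -1.24, SE 0.15, limma adjusted p = 0.11) and was the only gene of the list with an unadjusted p under 0.05. Pou3f4 differed by -0.31 and Onecut2 by -0.12. Pou3f4, the remaining gene of the Pou3 class, was dim, at -5.17 ± 0.19 in control and -5.47 ± 0.36 in the arrays labelled cKO, and its groups overlapped. The differences without cKO replicate 1 were -1.09 for Satb1, -0.51 for Pou3f4 and -0.13 for Onecut2, and Pou3f4 then also had an unadjusted p under 0.05 (0.014 by limma). With normexp background correction, variances fitted to intensity, array weights or the slide row as a random block, Satb1 passed, with limma adjusted p of 0.0105 to 0.0444, and Nnmt passed under all but the last, with 0.0182 to 0.0318. Under these settings 56 to 287 of all 50030 probes passed, against 0 as tested.

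Markers of other layers and cell types were read on the same arrays, by the brightest probe of each gene. In bulk tissue, fewer cells of a type and less RNA per cell cannot be told apart. All 12 pan-neuronal and excitatory neuron markers were well above background on all 6 arrays, and their summed signal (in multiples of the 75th percentile) was 471 to 498 in control and 497 to 538 in the arrays labelled cKO. At an unadjusted p under 0.05, 1 of these was lower and 2 were higher, with a median log2 difference of 0.09, and -0.02 without cKO replicate 1. The counts in this paragraph stand against 4.17% of all gene names lower and 2.96% higher, so a single gene of a short list is near that share. By the same rule, 6 of 12 layer 4 markers were lower and 1 higher (summed signal 41.3 to 48.3 in control, 38.2 to 43.1 labelled cKO), and 7 of 16 deep-layer markers were higher and 1 lower (273 to 305, 302 to 317). Of astrocyte markers 11 of 12 were lower (156 to 183, 110 to 131), of oligodendrocyte lineage markers 5 of 12 (154 to 188, 127 to 147), of microglial markers 10 of 12 (77.5 to 80.3, 62.1 to 66.6) and of interneuron markers 2 of 10 (76.5 to 77.1, 59.2 to 72.0). Of vascular and meningeal markers 1 of 12 was lower (41.3 to 53.4, 29.5 to 50.7), of striatal markers 2 of 8 (41.4 to 52.1, 37.0 to 40.1), of thalamic markers 1 of 7 (12.5 to 14.4, 12.4 to 13.2) and of hippocampal markers 1 of 7 (1.13 to 1.71, 1.02 to 1.25), with none higher in any of these lists. Slc17a6 was the lower gene of both the pan-neuronal and the thalamic list. Tbr1, which was higher, was in both the pan-neuronal and the deep-layer list. None of the lists in this paragraph held a gene that passed over all probes, and none was at background throughout. Their part in the Cux1, Kitl and POU values was not tested.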

How the data were processed

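The deposited scanner files hold fluorescence intensity values of 1-colour (Cy3) Agilent arrays. Per the file headers, they were written by Feature Extraction 10.5.1.1, which detrended and background-subtracted the processed intensity, without normalization between arrays, and placed probes on mm9. The authors' series matrix holds log2 values with no stated processing in the sources used here. They matched processed signals that were quantile-normalized, logged and centred on the median of each probe (95% of values within 0.00274). Scale and centring are inferred from that match, and the matrix served as an alternative.

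Values tested were log2 processed intensities minus each array's 75th percentile, without control and outlier-flagged spots (112 to 198 per array). Probes entered the test where 3 or more arrays had them well above background. Folds are antilogs of the log2 differences. Groups were compared per probe with limma 3.58.1 in R 4.3.3 (lmFit, eBayes, two-sided, Benjamini-Hochberg over 50030 probes, threshold 0.05). An exact permutation test of 3 against 3 arrays cannot go below p = 0.10.

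Members and lists were chosen with earlier results of these data known. Named were every member and, of the upper-layer, POU and Kit lists, the 4 genes with the smallest p, except some that are not reported here. Slide rows are the last number of the array position in the file headers. Alternatives were other scalings, background corrections, filters, units of test, variance models, weights, blocks and single arrays left out; within-row values and the calls by unadjusted p or overlap were added after seeing the data. Replicate numbers were shared by the groups, but nothing states that they pair samples.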

Additional observations from a re-analysis of the deposited data

How the results depend on the processing

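Over 23 other settings with a test, 31 probe or gene differences were refitted 701 times; 656 refits kept direction and side of the threshold, 16 newly passed and 29 turned sign. Of 62 values within slide rows, which have no test, 10 turned sign. Cux1 and Kitl kept their direction in all of them, with -0.71 for the mean of the Cux1 probes and ranges of -0.63 to -0.31 (Cux1 at 2821), -0.75 to -0.18 (3753), -1.22 to -0.87 (5591) and -0.80 to -0.60 (Kitl). Settings that only leave out, weight or pick arrays could not have turned these signs, because the groups did not overlap. Those settings therefore add no support for the direction. Of the member probes, 2 passed with array weights and 0 under any other setting. The Y-linked term and leaving out the arrays with Y-linked signal give the same differences, those of the arrays labelled cKO against control replicate 2 alone. Probes lower at unadjusted p under 0.05 numbered 2 with the brightest probe per gene or the mean of a gene's probes, where 2 were also lower without overlap. These counts are over 10 genes, so the 3 Cux1 probes count once. Probes higher at unadjusted p under 0.05 numbered 1 (Pou3f1) with array weights or the slide row as a linear term, and 0 to 4 with single arrays left out. Probes higher without overlap numbered 1 under quantile normalization, median centring, normexp with quantile and the series matrix, and 2 to 7 with single arrays left out. The upper count came without cKO replicate 1 in both. Over all probes, those at unadjusted p under 0.05 in either direction numbered 3402 as tested and 8355 with array weights. They numbered 4573 with row as a linear term and 2443 to 4145 with single arrays left out. Over 32869 gene names they numbered 2479 by the brightest probe and 2466 by the mean. Shares by direction are given above only without cKO replicate 1, so the other counts here have no such share to be read against. The median over the 16 probes ran from -0.15 (without cKO replicate 2) to 0.10 with single arrays left out. Signs turned for Pou3f3 (0.21 with array weights, 0.034 with row as a linear term, 0.077 with row as a random block, 0.10 with the Y-linked term and without those arrays, 0.31 within row 1, 0.35 within row 2), Mdga1 at 7505 (0.083 with weights, 0.12 with the Y-linked term and without those arrays, 0.041 and 0.19 within rows 1 and 2), Wfs1 (-0.27 with weights, -0.028 and -0.69 within rows), Cux2 (0.016 and 0.040 within rows), the probe of the predicted Cux2 transcript (0.028 with weights, 0.035 linear, 0.00996 random, 0.17 and 0.11 within rows) and Onecut2 (0.0046 with the Y-linked term and without those arrays). With single arrays left out, differences that turned sign ran from -0.32 to 0.080 for Cux2, -0.15 to 0.24 for Pou3f3, -0.14 to 0.45, -0.15 to 0.42 and -0.16 to 0.46 for Pou3f2 at 1423, 1785 and 3934, -0.078 to 0.20 and -0.22 to 0.033 for Mdga1 at 6050 and 7505, -0.22 to 0.65 for Wfs1 and -0.17 to 0.22 for the predicted Cux2 transcript. The cause was not tested. With the replicate number as a block, Kitl was -0.69 (limma adjusted p = 0.60) and 0 member probes passed. Same-numbered arrays deviated with r of -0.17, 0.07 and 0.16, and arrays with unlike numbers with r of -0.25 to 0.22. With 3 arrays per group these values cannot show whether the numbers pair samples. Over all probes, calls numbered 0 as tested, 287 with array weights, 119 with intensity-dependent robust variances, 92 and 85 with normexp and 56 with row as a random block. The number of arrays limits precision, and the dimmest member probes have the least signal over background.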
